A study of Mus musculus with 12 samples.

Results

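T cell receptor (TCR) repertoires were sequenced from sorted thymocytes of mice, and the clonotypes described here are beta chains that a mouse carried in both of its lineages and that no other mouse shared. A clonotype is a distinct productive beta chain rearrangement, that is, the best V segment, the best J segment and the nucleotide sequence of the CDR3, the loop encoded where V, D and J segments are joined. The members were the clonotypes found in the CD4 single-positive (CD4SP) and the CD8 single-positive (CD8SP) library of the same genotype and replicate number and in none of the other 10 libraries. There were 5084 of them among 496742 distinct productive beta (TRB) clonotypes. The members were thus chosen by presence in libraries, that is, by a read count above 0 in both, so their number against other pairs of libraries, and their reads against those of other clonotypes, are described here without a test.

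The 12 libraries came from thymocytes of untreated wild type mice (WT) and of mice lacking Chrna9 (labelled Chrna9 KO), which encodes a subunit of nicotinic acetylcholine receptors, with 3 CD4SP and 3 CD8SP libraries per genotype. The mice were 2 pairs of males and 1 pair of females; their age, strain and the construction of the knockout are not given in the sources used here. Cells were sorted by staining for CD4 and CD8 alone, with 1000000 CD4SP and 330000 CD8SP cells per sample, and the libraries were made from RNA. They give TCR chains only, so Chrna9 itself was not measured. The labels do not state that the CD4SP and CD8SP libraries with one number came from one mouse. They are called a mouse here because the rule takes them so, and the counts of shared clonotypes that bear on it are given with the results.

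The beta chain is the first TCR chain to be assembled. A thymocyte joins a D to a J segment and then a V segment to the DJ join, bases are trimmed from the segment ends, and the enzyme TdT adds bases that no gene encodes. Cells whose beta chain is productive pass a checkpoint and divide several times before each daughter assembles its own alpha chain (TRA). Only later do they become CD4 cells, which see peptides on MHC class II, or CD8 cells, which see peptides on MHC class I. Joins with few or no added bases are easier to make, and so recur in unrelated mice.

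Productive TRB reads ranged from 74021 to 134169 per library and distinct clonotypes from 36741 to 51904. The libraries carried few reads per clonotype and no molecule counts, so most clonotypes rest on a handful of reads and absence from a library means not seen at this depth. The invariant alpha chain of natural killer T cells (TRAV11 joined to TRAJ18), whose carriers the CD4 gate can hold, made up 5.26% to 8.49% of TRA reads in CD4SP and 0.0495% to 0.0983% in CD8SP libraries. Alpha joins of mucosal-associated invariant T cells (TRAV1 joined to TRAJ33) lay between 0.0126% and 0.0464%. Delta chain reads lay between 0.686% and 1.16% of the alpha and delta reads. Alpha and beta chains are not linked in these files, so the part of such cells in the members was not tested.

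Examples of members follow, written 5′ to 3′ as the deposited CDR3 nucleotides, with capitals for the bases between the end of the aligned V segment and the start of the aligned J segment (D bases and inserted bases). In each mouse the member with the most reads over both libraries is shown first, chosen by that sum alone; 3 of these 6 rest on 1 read in CD4SP.
WT replicate 1, TRBV14 and TRBJ1-4, 2 reads in CD4SP and 12 in CD8SP: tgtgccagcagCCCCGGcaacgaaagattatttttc
WT replicate 2, TRBV13-1 and TRBJ2-5, 4 reads in CD4SP and 12 in CD8SP: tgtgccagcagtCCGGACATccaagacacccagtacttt
WT replicate 3, TRBV29 and TRBJ2-5, 1 read in CD4SP and 22 in CD8SP: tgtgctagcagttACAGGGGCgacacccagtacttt
KO replicate 1, TRBV31 and TRBJ2-7, 1 read in CD4SP and 17 in CD8SP: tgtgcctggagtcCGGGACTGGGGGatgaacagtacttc
KO replicate 2, TRBV13-1 and TRBJ2-7, 1 read in CD4SP and 25 in CD8SP: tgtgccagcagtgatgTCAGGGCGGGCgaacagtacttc
KO replicate 3, TRBV13-1 and TRBJ2-7, 7 reads in CD4SP and 9 in CD8SP: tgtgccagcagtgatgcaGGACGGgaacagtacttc

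All 6 had more reads in CD8SP, and 4 of the 6 had only 1 or 2 reads in CD4SP. The KO replicate 1 chain had 0 inserted bases by the files' junction points, which assign all of its capitals to the second D segment (TRBD2). Germline sequences were not set against it. The next members without inserted bases, by reads over both libraries, are shown as further joins in which the files' junction points leave no base unassigned.
WT replicate 2, TRBV5 and TRBJ2-1, 1 read in CD4SP and 14 in CD8SP: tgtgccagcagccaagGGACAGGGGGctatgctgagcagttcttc
WT replicate 3, TRBV13-1 and TRBJ2-7, 6 reads in CD4SP and 7 in CD8SP: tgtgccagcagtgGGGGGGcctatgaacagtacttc

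Among members with more reads in CD4SP than in CD8SP, the 3 with the most reads over both libraries were as follows, and each has no D segment aligned.
KO replicate 2, TRBV29 and TRBJ1-2, 9 reads in CD4SP and 7 in CD8SP: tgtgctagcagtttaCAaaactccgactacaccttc
WT replicate 3, TRBV13-1 and TRBJ2-7, 9 reads in CD4SP and 6 in CD8SP: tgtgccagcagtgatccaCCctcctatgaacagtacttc
KO replicate 3, TRBV13-3 and TRBJ2-1, 13 reads in CD4SP and 1 in CD8SP: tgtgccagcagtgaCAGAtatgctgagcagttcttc

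The members ranged from 15 to 54 nucleotides of CDR3, and the ends of that range are shown to mark what the files call productive. The 15-nucleotide join has lost 18 bases of its J segment and rests on 1 read in each library.
WT replicate 1, shortest, TRBV29 and TRBJ2-5: tgtgctagcagtttt
WT replicate 1, longest, TRBV13-1 and TRBJ2-3, 2 reads in CD4SP and 5 in CD8SP: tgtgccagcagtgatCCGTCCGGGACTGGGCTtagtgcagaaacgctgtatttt

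Members were found in every mouse. WT replicates 1, 2 and 3 held 700, 872 and 775, and KO replicates 1, 2 and 3 held 915, 993 and 829, a mean of 847 ± 104 (SD, n = 6 mice). They were 1.83% ± 0.166 (SD, n = 6) of the clonotypes of a CD4SP library and 1.93% ± 0.188 of those of a CD8SP library. The background is the number of clonotypes found in exactly one CD4SP and one CD8SP library of different mice. That number ranged from 166 to 278 over the 30 such pairs of libraries, with a mean of 228 ± 27.7 (SD over pairs, which share libraries), so the lowest same-mouse count was 700 and the highest different-mouse count 278. The ratio of a mouse's members to the mean of its 10 different-mouse pairs was 3.71 ± 0.326 (SD, n = 6), from 3.29 in WT replicate 1 to 4.23 in KO replicate 2.

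The CD8SP library with its own number was the partner with the most such clonotypes for 6 of 6 CD4SP libraries. Pairs of CD4SP libraries of different mice shared 360 to 532 clonotypes in this exclusive way, with a mean of 428 over 15 pairs. Pairs of CD8SP libraries shared 281 to 411, with a mean of 345 over 15 pairs. Across different mice, libraries of the same lineage therefore shared more than libraries of opposite lineage, and the same-mouse pairs lay above all 3 kinds. Different-mouse CD4SP and CD8SP libraries that were next to each other in the sample numbering shared a mean of 226 over 4 pairs, against 228 over the 26 pairs further apart. All 6 same-mouse pairs were also next to each other, so for them position and mouse cannot be told apart.

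**Figure D1:**
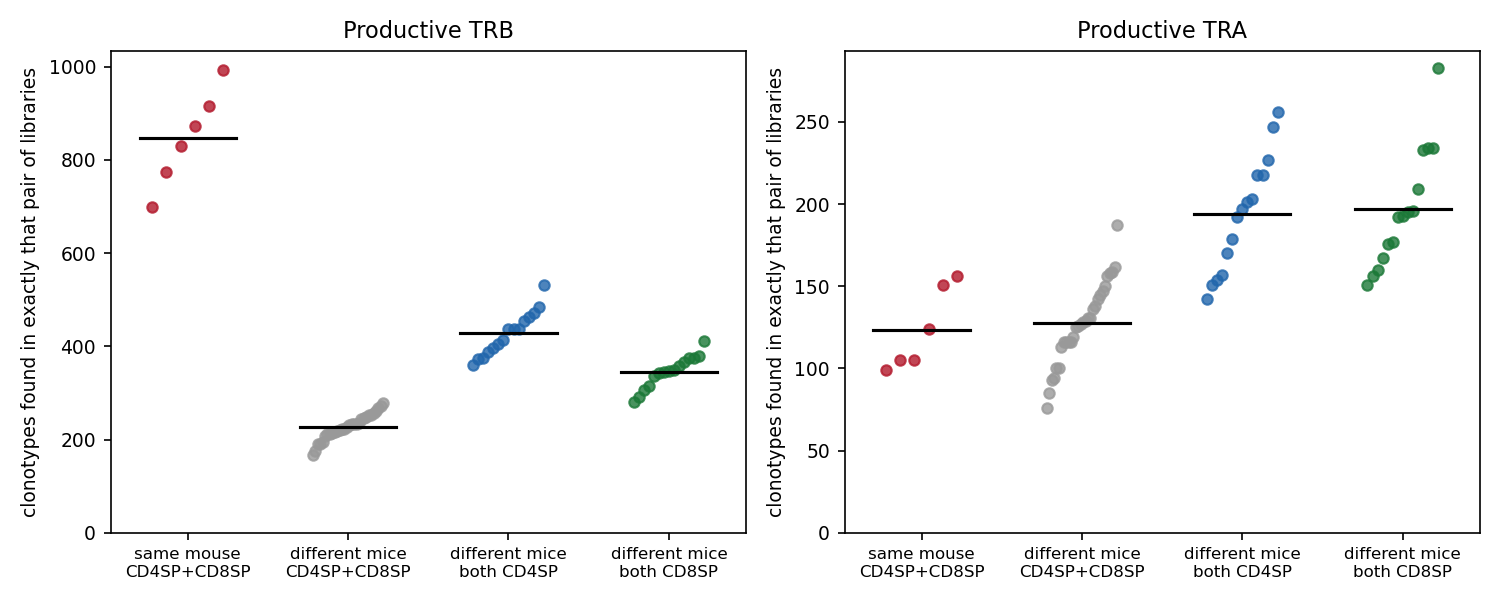
Number of clonotypes found in exactly one pair of libraries, for productive beta chains (left) and productive alpha chains (right); each point is a pair of libraries, ordered by value within its kind, and the line is the mean. For beta chains the 6 same-mouse pairs lie between 700 and 993, above all pairs of different mice; for alpha chains the same-mouse mean of 123 lies beside the different-mouse mean of 127.

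Alpha chains, counted by the same rule, gave same-mouse counts within the range of different-mouse counts. The same-mouse pairs held 105, 99 and 105 private alpha clonotypes in WT replicates 1 to 3 and 151, 156 and 124 in KO replicates 1 to 3. Different-mouse CD4SP and CD8SP pairs held 127 ± 25.04 (SD, n = 30 pairs), and the ratio per mouse was 0.964 ± 0.132 (SD, n = 6), from 0.761 to 1.14. The alpha tables are shallower, with 10456 to 14981 clonotypes per library. With every library of both chains thinned to 19847 reads, the beta chain same-mouse pairs still held 153 ± 4.49 clonotypes against 55.8 ± 7.70 in different-mouse pairs, and the alpha chain pairs held 97.2 ± 12.8 against 102 ± 11.9. Among joins with 5 or more inserted bases, beta chains gave 186 ± 21.0 per same-mouse pair and 19.2 ± 3.49 per different-mouse pair. Alpha chains gave 2.17 ± 0.753 and 2.5 ± 1.85. These joins were not thinned: a library held 9397 to 13648 such beta clonotypes and 1173 to 1780 such alpha clonotypes. Alpha counts this low cannot show whether the chains differ here. Beta chains out of frame or with a stop codon were few in these RNA libraries, with 8 private clonotypes in all over the 6 same-mouse pairs and 16 over the 30 different-mouse pairs.

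Members near the border of the rule are of 2 kinds. Just inside, 647 members (12.7% ± 1.53 per mouse, SD, n = 6) had a single read in each library, and 2062 had at least 2 reads in each. Just outside, 1285 clonotypes were in both libraries of a mouse and in 1 other library, 178 to 242 per mouse, and 2613 times a clonotype in both libraries of a mouse was also in at least 2 others. Of the members, 5017 amino acid clonotypes were distinct, so most were unlike each other also as proteins. Only 26 had the same CDR3 nucleotides as another member with a different V or J.

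Members carried fewer inserted bases than clonotypes of 1 library, and more than clonotypes shared by 2 mice. The mean number of inserted bases was 2.84 ± 0.0998 (SD, n = 6 mice) in members, 3.37 ± 0.0113 in clonotypes found in 1 CD4SP library only, and 3.34 ± 0.0112 in those found in 1 CD8SP library only. In clonotypes found in one CD4SP and one CD8SP library of different mice, each counted with the mouse of its CD4SP library, it was 1.75 ± 0.0467. Joins without any inserted base made up 16.4% ± 0.827 of members, 10.6% and 10.9% of the CD4SP-only and CD8SP-only clonotypes, and 29.7% ± 1.16 of those of 2 mice. Against the mean of the CD4SP-only and CD8SP-only values, members had 0.519 ± 0.0974 fewer inserted bases, lower in 6 of 6 mice (exact two-sided sign-flip test, p = 0.03125, the smallest that 6 mice can give; 0.0339 after Benjamini-Hochberg adjustment over the 13 measures tested). Against CD4SP-only clonotypes alone, 0 of the 13 measures passed in this exact test; inserted bases were lower in 6 of 6 mice there too, with an adjusted p of 0.0508. Against the clonotypes of 2 mice they had 1.09 ± 0.122 more, higher in 6 of 6 mice, but the adjusted p of 0.0508 in the same exact test missed the threshold of 0.05. For inserted bases the unadjusted p was 0.03125, the smallest possible, in each of these comparisons. The adjusted values thus differ only by how many of the 13 measures reached it, and do not rank the differences.

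The ratio of members to different-mouse pairs grew with the number of inserted bases in every mouse, up to 7 to 8 bases. The difference in numbers did not: its mean was 71.2 clonotypes without insertions, 198 at 1 to 2 inserted bases and 43.4 at 7 to 8. Here the background of a mouse was the mean of the 5 different-mouse pairs that hold its CD4SP library, not of all 10. For joins without insertions, members numbered 139 ± 21.7 per mouse against 67.8 in a different-mouse pair, and the ratio averaged over mice was 2.06 ± 0.300. The ratio was 3.08 ± 0.370 at 1 to 2 inserted bases, 5.02 ± 0.408 at 3 to 4, 7.67 ± 1.12 at 5 to 6 and 15.6 ± 4.56 at 7 to 8, rising at each step in 6 of 6 mice. At 9 to 10 inserted bases there were 82 members over the 6 mice and 2 clonotypes over all 30 different-mouse pairs. At 11 or more there were 26 members and 0 such clonotypes. These are counts from the contrast that chose the members, so they carry no test.

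Subtracting the mean of the 5 different-mouse pairs that hold a mouse's CD4SP library from its members left 619 ± 91.1 clonotypes per mouse (SD, n = 6). Of this remainder 11.3% ± 1.83 had no inserted base, against 10.7% ± 0.0957 of single-library clonotypes. At 1 to 2 inserted bases the shares were 31.9% ± 2.45 and 31.5% ± 0.251, at 3 to 4 they were 29.6% ± 1.19 and 29.2% ± 0.158, and at 5 to 6 they were 17.3% ± 2.52 and 17.4% ± 0.112. At 7 to 8 the remainder had 7.06% ± 1.09 and the single-library clonotypes 7.75% ± 0.0611. In all 7 classes of inserted bases the mean of the remainder lay within 1 SD, that of the remainder, of the single-library mean. This did not hold for every segment and length. TRBV13-3 made up 18.2% ± 2.23 of the remainder and 10.2% ± 0.103 of single-library clonotypes, and TRBJ2-7 26.9% ± 1.54 and 21.8% ± 0.318. Lengths of 36 nucleotides made up 14.8% ± 1.23 and 11.2% ± 0.129, and of 51 nucleotides 0.654% ± 0.279 and 2.11% ± 0.0972. Other shares were alike, as for TRBV5, with 12.9% ± 0.807 and 12.7% ± 0.266. Reads per clonotype varied little with insertions: single-library clonotypes averaged 1.83 to 1.86 reads in CD4SP and 2.58 to 2.66 in CD8SP over the 7 classes of inserted bases.

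**Figure D2:**
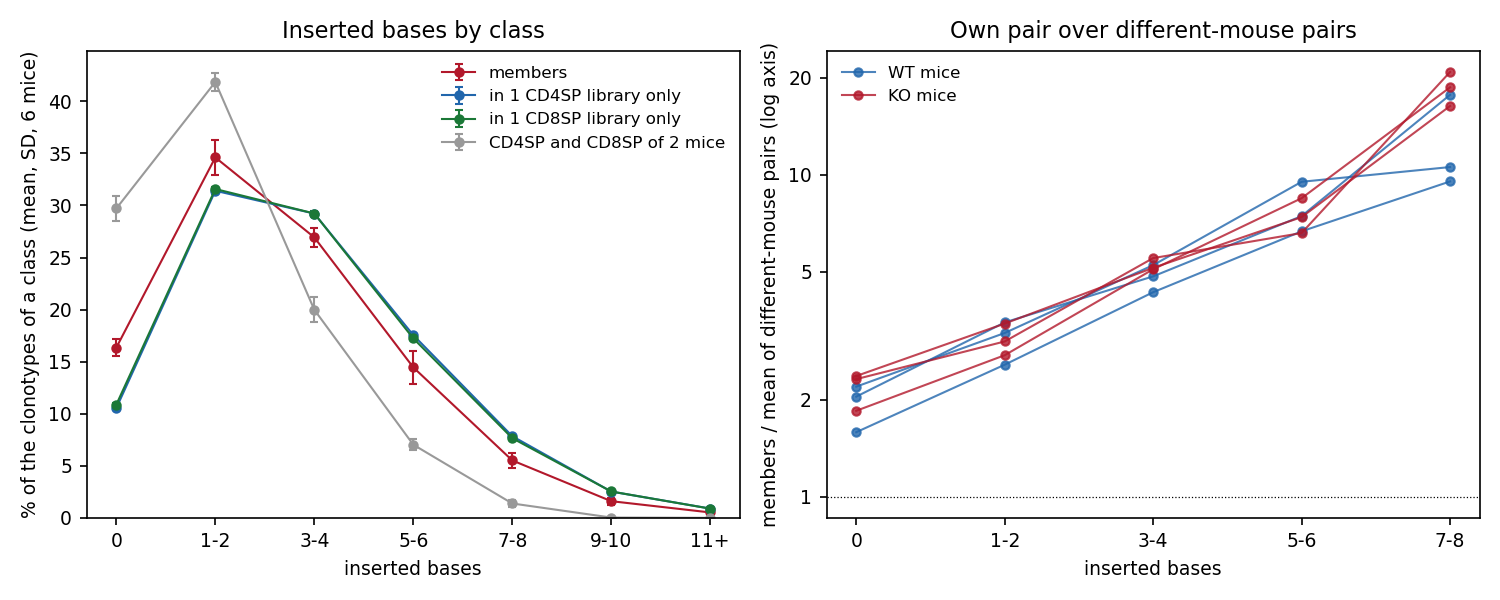
Left, share of each class of clonotypes by number of inserted bases (mean and SD over 6 mice). Right, members divided by the mean of the different-mouse pairs that hold the mouse's CD4SP library, 1 line per mouse on a log axis. Members lie between the single-library classes and the clonotypes of 2 mice, and the ratio rises from a mean of 2.06 without insertions to 15.6 at 7 to 8 inserted bases.

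Trimming and D use of the members also lay between those classes. Members had lost 2.27 ± 0.0778 bases of V and 2.75 ± 0.0635 of J, against 2.47 and 2.87 in single-library clonotypes and 1.902 and 2.20 in those of 2 mice. The differences from single-library clonotypes, −0.201 ± 0.0750 and −0.117 ± 0.0608 bases, were lower in 6 of 6 mice each (adjusted p = 0.0339 in the exact sign-flip test). The V difference did not pass against CD4SP-only clonotypes alone (−0.0872 ± 0.0893 bases, lower in 4 of 6 mice, adjusted p = 0.135 in the exact test) or with clonotypes matched by CDR3 nucleotides alone (−0.0662 ± 0.0698, lower in 5 of 6 mice, adjusted p = 0.102). No D segment was aligned in 30.9% ± 1.51 of members and 25.8% ± 0.334 of single-library clonotypes, 5.08 ± 1.42 percentage points more in members, also in 6 of 6 mice and with the same p. TRBD2 was the best D in 29.5% ± 2.20 of members and 30.8% ± 0.241 of single-library clonotypes, and this difference did not pass (2 mice higher and 4 lower, adjusted p = 0.219 in the exact test).

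Members were shorter than clonotypes of 1 library. Their CDR3 averaged 40.6 ± 0.156 nucleotides (SD, n = 6), against 41.5 in CD4SP-only and 41.7 in CD8SP-only clonotypes and 40.1 ± 0.115 in clonotypes of 2 mice. The difference from single-library clonotypes was −1.03 ± 0.143 nucleotides, in 6 of 6 mice (adjusted p = 0.0339 in the exact test). By length, 8 of 13 classes with enough clonotypes (61.5%) passed in the quasi-likelihood test of edgeR after Benjamini-Hochberg adjustment, 3 higher in members (23.1%) and 5 lower (38.5%). Lengths of 33, 36 and 39 nucleotides rose, by 0.50 ± 0.10 (SE), 0.44 ± 0.06 and 0.27 ± 0.04 on the log2 scale. Lengths of 45, 48, 51 and 54 fell by 0.25 ± 0.04, 0.85 ± 0.08, 2.04 ± 0.19 and 2.0 ± 0.47. The last of the lower classes, 24 nucleotides, held 0 members. The most common length, 42 nucleotides, made up 29.5% ± 1.43 of members and 29.9% of both single-library classes.

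**Figure D3:**
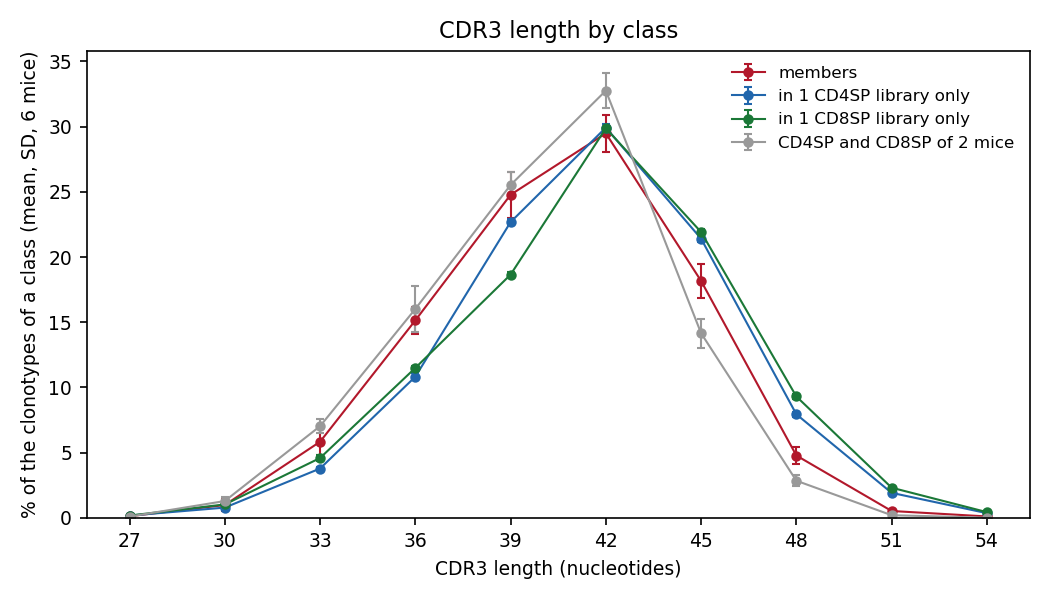
Share of each class of clonotypes by CDR3 length in nucleotides, from 27 to 54 (mean and SD over 6 mice). Members exceed both single-library classes at 33, 36 and 39 nucleotides and lie below them at 45 and above, where they exceed the clonotypes of 2 mice.

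Against clonotypes of 2 mice, the order at the long end was the reverse. In that comparison, added after seeing the data, 4 of 7 lengths tested passed (57.1%; edgeR, as above), with 45 and 48 nucleotides higher in members, by 0.36 ± 0.06 and 0.73 ± 0.15 on the log2 scale, and 33 and 42 lower, by −0.27 ± 0.11 and −0.15 ± 0.04. The 33- and 42-nucleotide calls were lost with TMM scaling of the column totals or without WT replicate 3, which left 2 calls each.

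The members used the common V segments more, and the rare ones less, than clonotypes of 1 library did. Of the 24 TRBV segments in the tables, the 5 most used among single-library clonotypes (TRBV5, TRBV31, TRBV13-1, TRBV13-3 and TRBV29) were the 5 with a larger share of members than of single-library clonotypes, and the other 19 had a smaller one. These 5 made up 71.5% of members, 53.7% of single-library clonotypes and 63.1% of clonotypes of 2 mice. In edgeR's quasi-likelihood test on numbers of clonotypes per segment, 26 of 34 TRBV and TRBJ segments passed (76.5%), 7 higher in members (20.6%) and 19 lower (55.9%). The split moved with scaling: TMM factors gave 11 higher and 13 lower and DESeq2 11 and 11, with the median log2 change over the segments moved up by 0.23 and 0.29. All log2 changes below are on the scale of plain shares.

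The TRBV13 family (Vbeta8), a set of related segments used by many mouse T cells, held the 2 largest rises among the 34 segments of this fit. TRBV13-3 (chromosome 6, 41130147 to 41130585, mm10) was used by 861 members. Its share was 17%, 14.4% and 18.6% in WT replicates 1 to 3 and 17.6%, 15.9% and 18.5% in KO replicates 1 to 3. Its share of CD4SP-only clonotypes was 9.55% to 10.1% and of CD8SP-only clonotypes 10.3% to 10.9%, so members overlapped neither class. Among clonotypes of 2 mice its share was 12.7% to 15.3%, which overlapped that of members. The log2 change was 0.74 ± 0.05 (SE; edgeR adjusted p = 8.6e-12).

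TRBV13-1 (chromosome 6, 41116036 to 41116468) was used by 817 members. Its share was 17.7%, 15.8% and 15.5% in WT replicates 1 to 3 and 15.6%, 16.01% and 16.04% in KO replicates 1 to 3, all above the 9.99% to 11.9% of the single-library classes. The log2 change was 0.55 ± 0.04 (edgeR adjusted p = 8.6e-12). TRBV13-2 (chromosome 6, 41121396 to 41121832) went the other way, with 91 members, 1.77% ± 0.602, against 4.51% and 3.32% in the single-library classes (log2 change −1.12 ± 0.16, edgeR adjusted p = 1.71e-06). The family as a whole made up 34.9% ± 1.55 of members against 25.1% ± 0.389 of single-library clonotypes, 9.79 ± 1.60 percentage points more, in 6 of 6 mice (adjusted p = 0.0339 in the exact sign-flip test). It also made up 32.5% ± 1.22 of clonotypes of 2 mice, a comparison added after seeing the data. There members had 2.39 ± 2.47 percentage points more, higher in 4 of 6 mice, which did not pass (adjusted p = 0.1625 in the exact test). TRBV13-1 and TRBV13-3 were the 2 of 16 TRBV segments with at least 25 members whose mean share exceeded both single-library means, while 6 lay between them and 8 below.

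Several segments that the 2 lineages use unequally took intermediate values in members. TRBV31 (chromosome 6, 41557693 to 41558371), which lies downstream of the J segments in inverted orientation, made up 12%, 13.2% and 12.6% of members in WT replicates 1 to 3 and 12.5%, 11.9% and 15.6% in KO replicates 1 to 3. It made up 17.2% to 18.3% of CD4SP-only and 4.64% to 5.02% of CD8SP-only clonotypes, so members lay between the lineages in every mouse. TRBV14 (chromosome 6, 41135167 to 41135616) leaned to CD8SP and again lay between, with 5.11% ± 0.922 of members, 2.60% of CD4SP-only and 7.84% of CD8SP-only clonotypes. TRBV5 (chromosome 6, 41062359 to 41062803) had 14.2% ± 0.554 of members against 16.1% and 9.21%. The main contrast sets members against the log-scale mean of both lineages, so its calls for TRBV31 (0.49 ± 0.05) and TRBV5 (0.22 ± 0.06) turned against CD4SP-only clonotypes alone, to −0.44 and −0.18.

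Superantigens are proteins, in mice often encoded by endogenous proviruses, that bind particular V beta segments and can cause their loss in the thymus. The 7 segments listed for them (TRBV29, TRBV26, TRBV17, TRBV16, TRBV15 and both TRBV12 segments) made up 26.3% ± 1.85 of members, 23.7% ± 0.155 of CD4SP-only and 40.2% ± 0.803 of CD8SP-only clonotypes. Members were 5.64 ± 1.79 percentage points below the mean of the lineages in 6 of 6 mice (adjusted p = 0.0339 in the exact test), but 2.62 above the CD4SP-only clonotypes alone. Clonotypes of 2 mice had 28.5% ± 1.65, and the difference of members from them, −2.14 ± 2.77, did not pass (lower in 4 of 6 mice, adjusted p = 0.185 in the exact test). Within the list, 6 segments fell and TRBV29 rose. TRBV16 fell most (log2 change −1.68 ± 0.32), with 29 members, followed by TRBV12-2 (−0.88 ± 0.15). TRBV12-1 (−0.46 ± 0.11) and TRBV17 (−0.31 ± 0.11) were below the mean of the lineages but above CD4SP-only clonotypes alone, by 0.26 and 0.39. TRBV26 (−0.50 ± 0.13) and TRBV15 (−0.28 ± 0.11) fell too, and TRBV15 did not pass with TMM factors or in DESeq2, where its log2 change was 0.008.

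TRBV29 (chromosome 6, 41271403 to 41271881) made up 14.6%, 11.1% and 12.4% of members in WT replicates 1 to 3 and 9.07%, 11.4% and 8.81% in KO replicates 1 to 3. Its share was 6.01% ± 0.208 of CD4SP-only and 11.2% ± 0.564 of CD8SP-only clonotypes. The log2 change was 0.43 ± 0.07 (edgeR adjusted p = 3.85e-06), and against CD8SP-only clonotypes alone it was −0.02.

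Rarely used segments were rarer still among members. TRBV19 had 16 members (0.315% ± 0.175 against 1.56% and 1.34%; log2 change −2.20 ± 0.27), TRBV2 had 9 (−2.08 ± 0.44) and TRBV30 had 5 (−1.94 ± 0.50). TRBV4 (−1.61 ± 0.28), TRBV3 (−1.20 ± 0.14), TRBV23 (−1.09 ± 0.33) and TRBV1 (−0.95 ± 0.17) fell as well. TRBV21, TRBV22 and TRBV24 had 0 members and make up under 0.1% of single-library clonotypes each. Reads per clonotype moved with these shares over the 21 TRBV segments with at least 5 members. The mean reads of a single-library clonotype were compared with the ratio of the member share to the single-library share. The Pearson correlation across segments, with the log2 of that ratio, was 0.613, and the Spearman correlation was 0.616. The segments share libraries and primers, and the part of read depth in the segment shares was not tested.

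**Figure D4:**
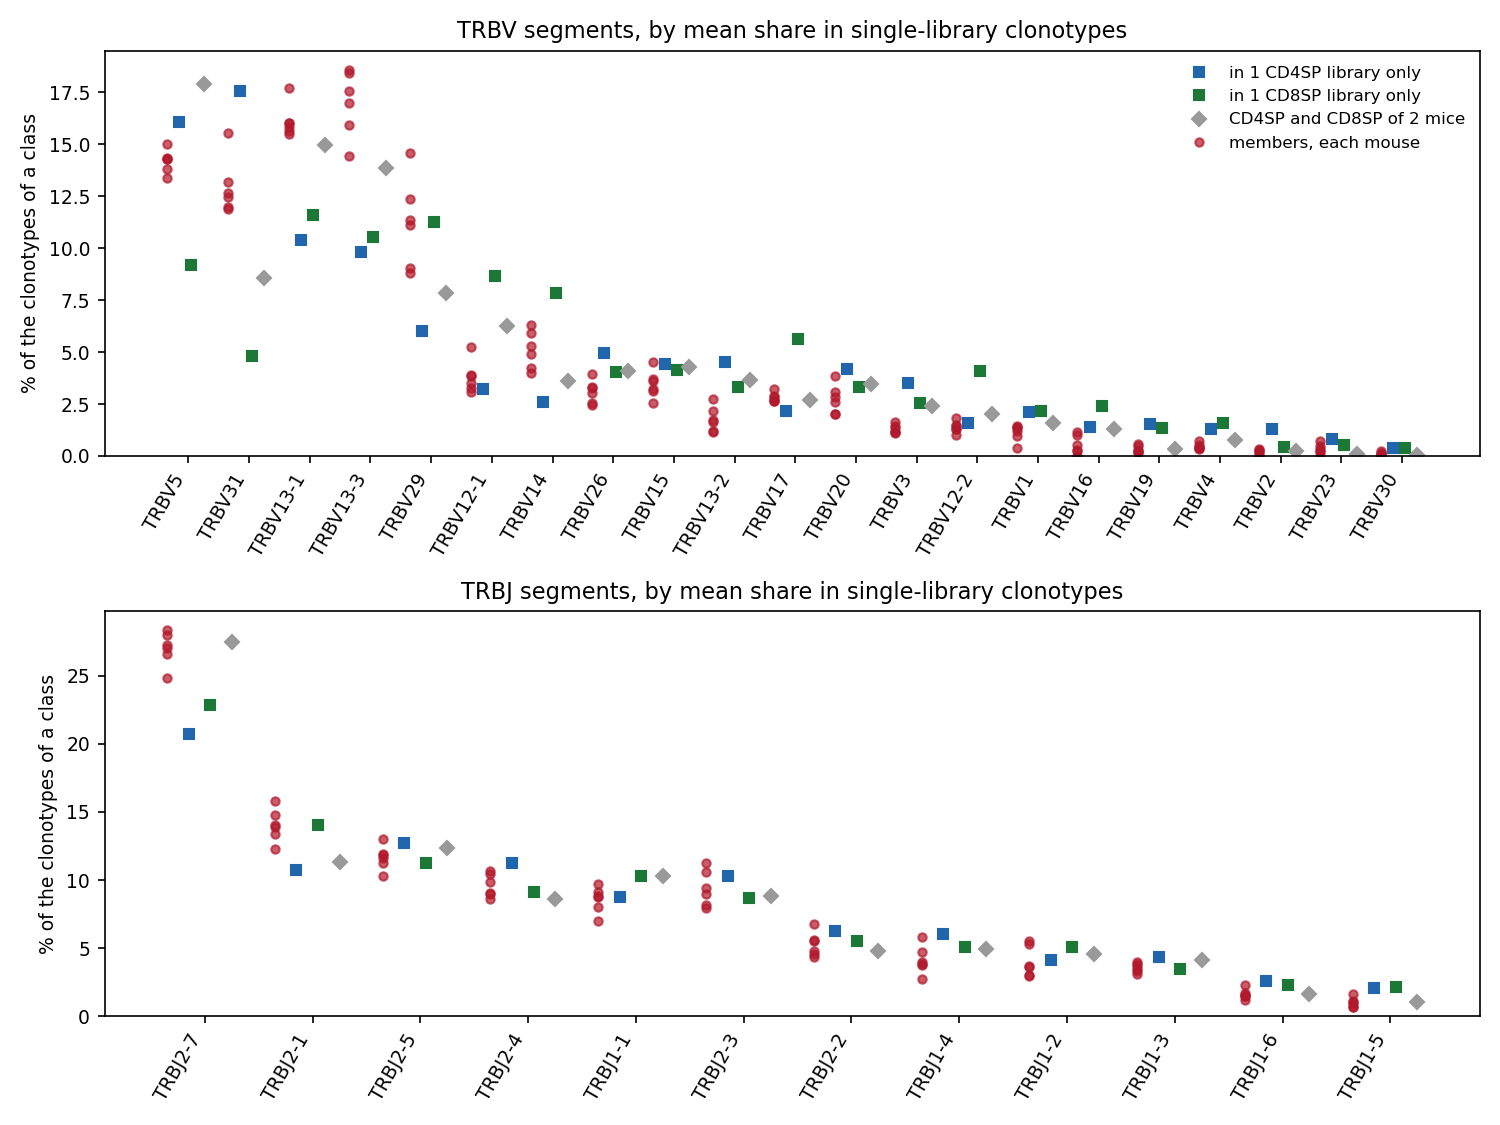
Share of each TRBV (top) and TRBJ (bottom) segment among members (red, 1 point per mouse) and its mean share among clonotypes of 1 CD4SP library, of 1 CD8SP library, and of a CD4SP and a CD8SP library of different mice. Segments without members are left out; TRBV13-1 and TRBV13-3 lie above all 3 other classes on average, and TRBV31 and TRBV14 lie between the 2 single-library classes.

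Among J segments, members used the TRBJ2 cluster more, through TRBJ2-7 and TRBJ2-1 alone. This cluster, which follows TRBD2 on the chromosome and can join to either D, made up 77.0% ± 2.73 of members and 71.8% ± 0.549 of single-library clonotypes, 5.21 ± 2.51 percentage points more, in 6 of 6 mice (adjusted p = 0.0339 in the exact test). TRBJ2-7 (chromosome 6, 41543810 to 41543856) was in 1369 members, 24.8% to 28.3% per mouse against 20.7% ± 0.337 and 22.9% ± 0.359 in the single-library classes (log2 change 0.31 ± 0.02, edgeR adjusted p = 2.21e-11). TRBJ2-1 (chromosome 6, 41542754 to 41542803) was in 717 members, 14.0% ± 1.20, against 10.8% in CD4SP-only and 14.0% in CD8SP-only clonotypes (0.20 ± 0.04), and did not pass against CD8SP-only clonotypes alone. The 4 lower J segments were all of the TRBJ1 cluster: TRBJ1-5 (−1.04 ± 0.16), TRBJ1-6 (−0.58 ± 0.15), TRBJ1-4 (−0.44 ± 0.10) and TRBJ1-1 (−0.15 ± 0.06), the last of which turned to 0.08 with TMM factors and 0.15 in DESeq2.

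Against clonotypes of 2 mice, the comparison added after seeing the data, 12 of 28 segments passed (42.9%; edgeR), 5 higher in members (17.9%) and 7 lower (25%). The higher ones were TRBV31 (0.60 ± 0.07), TRBV14 (0.51 ± 0.15), TRBV29 (0.50 ± 0.09), TRBJ2-1 (0.31 ± 0.04) and TRBV13-3 (0.29 ± 0.06). TRBV31 made up 13.0% of members and 8.55% ± 1.04 of clonotypes of 2 mice, and the per-mouse ranges, from 11.9% upward and up to 10.6%, did not overlap. The lower ones were TRBV13-2 (−1.03 ± 0.20), TRBV3 (−0.88 ± 0.17), TRBV12-1 (−0.70 ± 0.10), TRBV12-2 (−0.52 ± 0.18), TRBV26 (−0.39 ± 0.13), TRBV5 (−0.35 ± 0.05) and TRBJ1-1 (−0.26 ± 0.08). TRBV13-1 (0.11 ± 0.04, adjusted p = 0.172) and TRBJ2-7 (−0.03 ± 0.03, adjusted p = 0.655) did not pass in this fit. The TRBV14 call rests on how a clonotype is defined, with a value of −0.41 when clonotypes were matched by CDR3 nucleotides alone. With at least 2 reads required in each library, 6 segments passed.

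The protein sequences of members recurred in other mice more often than those of single-library clonotypes. The same amino acid CDR3 with the same V and J, written by different nucleotides, was found in another mouse for 40.1% ± 1.64 of members, 24.6% ± 0.401 of CD4SP-only and 23.1% ± 0.237 of CD8SP-only clonotypes. The difference from single-library clonotypes was 16.3 ± 1.71 percentage points, in 6 of 6 mice (adjusted p = 0.0339 in the exact test). Clonotypes of 2 mice reached 58.5% ± 1.64 although only the 4 remaining mice were searched for them. The mean Kyte-Doolittle hydropathy of CDR3 residues 6 and 7, positions that often touch the peptide, was −1.06 ± 0.0525 in members and −1.161 ± 0.00409 in single-library clonotypes, a difference of 0.101 ± 0.0540 toward hydrophobic residues in 6 of 6 mice (same p). Against CD4SP-only clonotypes alone it was higher in 5 of 6 mice and did not pass (adjusted p = 0.0739 in the exact test). A cysteine within 2 residues of the middle, a feature that negative selection is known to act against, was found in 1 member, in KO replicate 3, and in 0 members of the other 5 mice, a mean share of 0.0201% against 0.129% ± 0.00967 of single-library clonotypes. A share that rests on 1 member is given as a description, with no test.

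Members had slightly more reads than single-library clonotypes, in a measure the rule itself depends on. The mean was 1.94 ± 0.108 reads (SD, n = 6) in CD4SP and 2.85 ± 0.181 in CD8SP libraries, against 1.84 ± 0.0770 and 2.60 ± 0.112 for clonotypes of 1 library. The highest count of a member was 13 reads in CD4SP and 25 in CD8SP. Among members and single-library clonotypes of a CD4SP library together, members were 1.96% ± 0.127 of those with 1 read and 2.72% ± 0.662 of those with 5 to 6. In CD8SP libraries they were 1.82% ± 0.275 of those with 1 read and 2.92% ± 0.248 of those with 7 to 9. The reads of a member in one library said little of its reads in the other: within a mouse the Spearman correlation across members was 0.0219 to 0.0595. Members had to have at least 1 read in each library, and 2351 had only 1 in CD4SP. With counts so low and tied, this value cannot show whether clone sizes in the 2 lineages go together. Of all members, 1112 had more reads in CD4SP, 2715 more in CD8SP and 1257 equal numbers, in libraries that were on average deeper for CD8SP.

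Reads of the members by segment are given for both lineages as a description, since reads above 0 in these same libraries chose the members, and nothing is supported with them. In edgeR's quasi-likelihood fit with the mouse as block, 6 of 27 segments were past the threshold (22.2%), 3 with a positive CD4SP minus CD8SP difference (11.1%) and 3 with a negative one (11.1%). TRBV31 had 15.7% ± 2.28 of member reads in CD4SP and 13.5% ± 1.44 in CD8SP (log2 difference 0.23 ± 0.04). The other positive values were those of TRBV1 (0.50 ± 0.13) and TRBJ1-4 (0.26 ± 0.10), and the negative ones those of TRBV14 (−0.31 ± 0.09), TRBV13-1 (−0.17 ± 0.04) and TRBV29 (−0.15 ± 0.05). In edgeR, 0 segments passed with at least 2 reads required in each library (3 at an unadjusted p under 0.05) or without the mouse as block (2 unadjusted), and 1 passed with libraries thinned to equal reads. DESeq2 called 5.

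Members per clonotype were higher in KO than in WT in 3 of 3 pairs, a difference that shrank at equal depth. Per 10000 distinct clonotypes of a mouse there were 86.1, 99.02 and 89.4 members in WT replicates 1 to 3 and 95.4, 105.4 and 96.5 in KO replicates 1 to 3, a mean of 91.5 ± 6.71 and 99.1 ± 5.52 (SD, n = 3 each). KO exceeded WT by 7.59 ± 1.49 (SD over pairs), but the exact sign-flip test over 3 pairs cannot go below p = 0.25, which it gave. With all libraries thinned to 74021 reads the difference was 1.28 ± 2.19, in 2 of 3 pairs, and per 1e9 possible pairs of a CD4SP and a CD8SP clonotype it was 1.13 ± 31.5, in 1 of 3 pairs.

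The segments of members did not differ detectably by genotype. In edgeR's quasi-likelihood test with the replicate number as block, 0 of 26 segments passed (0%), although 1 had an unadjusted p under 0.05. In DESeq2 0 passed, and 0 had an unadjusted p under 0.05. The segment with the smallest p was TRBV29, the superantigen-listed segment whose per-mouse shares are given above, with a log2 change of −0.36 ± 0.14 in KO (adjusted p = 0.405 in edgeR). Its KO shares, up to 11.4%, overlapped the WT shares, from 11.1%. Without WT replicate 2, TRBV29 passed with −0.53 ± 0.15 (adjusted p = 0.0450 in edgeR). The next 4 by p were TRBJ1-1 (0.18 ± 0.14), TRBV12-1 (0.27 ± 0.22), TRBV15 (0.28 ± 0.23) and TRBV26 (0.29 ± 0.24), each with an adjusted p of 0.922 in edgeR.

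**Figure D5:**
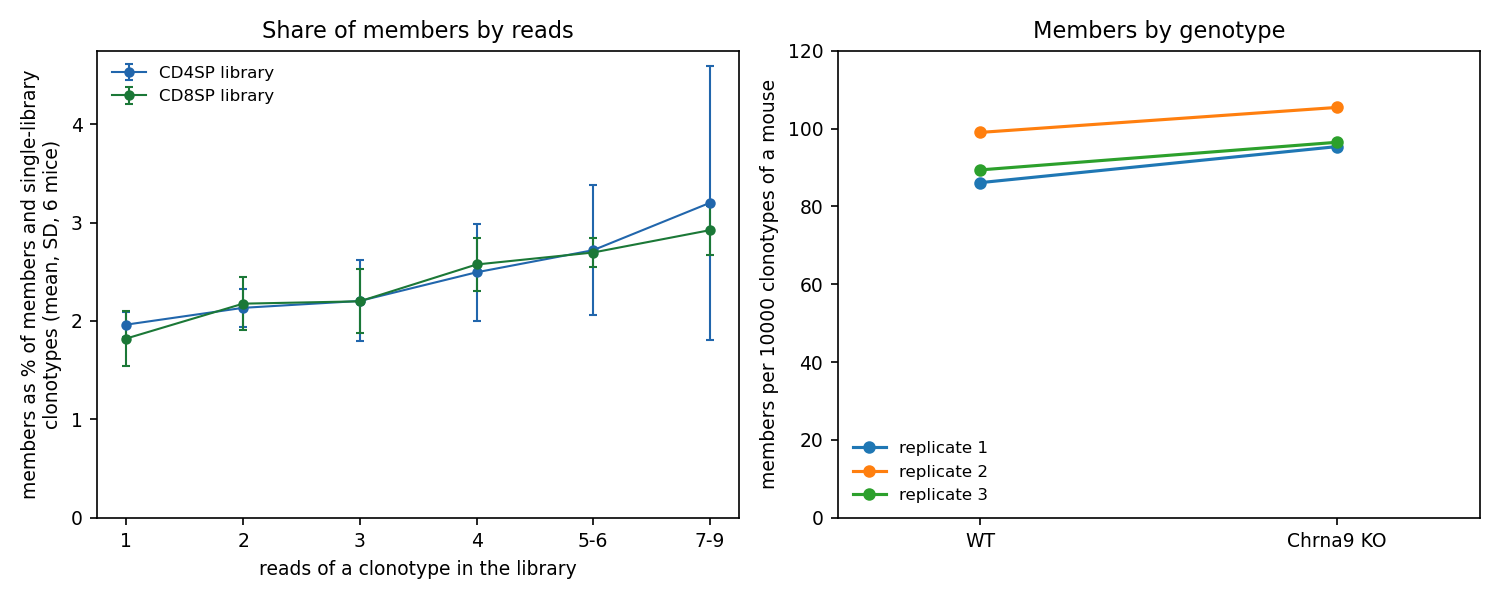
Left, members as a share of members and single-library clonotypes by the reads of a clonotype in the library (mean and SD over 6 mice); right, members per 10000 distinct clonotypes of each mouse, with lines joining WT and KO mice of equal replicate number. The share of members rises with reads in both libraries, from 1.96% and 1.82% at 1 read, and KO lies above WT in 3 of 3 pairs by 7.59 on average before depth is equalised.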

How the data were processed

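Clonotype tables of 12 libraries were used, with 1 TRB and 1 alpha and delta chain table each. Per the series design text, clonotypes were assembled with MiXCR; its version and filters are not given in the sources used here. Build mm10 is named in the submitters' processing notes. Each deposited table gives read counts for its clonotypes, per the file headers, without molecule counts; the deposited fraction is that count over the file total and served as a check. Reads without a covered CDR3 (0.513% to 0.837% of TRB reads) and nonproductive ones (1.36% to 2.33%) were left out. Segments are best hits without the allele; 4 productive TRB rows had tied hits. Inserted and trimmed bases come from the junction points in the files. Positions are those of RefSeq (GRCm38.p6, the same build as mm10), where 36 of 36 TRB segments were matched.

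Numbers of distinct clonotypes (or reads) per segment and length were tested with edgeR 4.0.16 in R 4.3.3 (quasi-likelihood test, filterByExpr, column totals as library sizes, Benjamini-Hochberg threshold 0.05), with the mouse, or for genotype the replicate number, as block. Log2 fold changes are from these fits, with SE. The 13 measures per mouse were tested by exact two-sided sign flips over 6 mice (Python 3.11.15, scipy 1.17.1, numpy 2.4.6, pandas 2.3.3, matplotlib 3.10.9); with 5 mice the smallest p is 0.0625. The scripts were tested on simulated data. Alternatives were at least 2 reads, CDR3 alone, no tied hits, equal reads, no clonotype 1 base from one with 5 times its reads, no block, each mouse left out, TMM, DESeq2 1.42.0, no filter, each lineage alone, and reads capped at 5. Nothing says that libraries are biological replicates beyond pairs of mice, so p-values measure the spread between these samples. Members and lists were chosen with earlier results of these data known. Named segments are those past the threshold (at most 10 per direction, else the 5 smallest p), the TRBV13 family and the superantigen list. Against single-library clonotypes, TRBV14, TRBJ1-1, TRBJ1-4 and TRBJ1-6 fall outside this rule and were named after their values were seen. Printed clonotypes have the most reads in their mouse, lineage lean or without insertions, or are the shortest and longest. Counting intervals are not given for clonotype numbers, since reads are not independent molecules.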

Additional observations from a re-analysis of the deposited data

Results flagged for a closer look

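In 4 of 47 sets of 6 values per mouse, 1 mouse stood far from the others by Dixon's criterion, which chance meets in about 1 of 20 sets. TRBV31 made up 15.6% of the members of KO replicate 3, against 11.9% to 13.2% in the other 5 mice. TRBV13-1 made up 17.7% of the members of WT replicate 1, against 15.5% to 16.04%. TRBV12-1 made up 5.25% of the members of KO replicate 1, against 3.10% to 3.90%. The share of members with a cysteine near the middle of the CDR3 was 0.121% in KO replicate 3, which is 1 member, and 0 in the other 5 mice.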

How the results depend on the processing

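Most results kept their direction under the alternatives; those that moved follow. Members per mouse fell to 379.5 with at least 2 reads in each library, and was 868 to 921 with a mouse left out. The ratio of same-mouse to different-mouse pairs was 3.26 with at least 2 reads, 2.95 by CDR3 nucleotides alone, 2.74 thinned to the smallest TRA library, and 3.35 to 3.49 with a mouse left out. Mean reads per member became 2.74 (CD4SP) and 3.54 (CD8SP) with at least 2 reads, and 1.79 and 2.14 at equal reads. Of the 13 measures, 0 passed with 5 mice, where the test cannot reach the threshold, and 0 against CD4SP-only clonotypes alone, where the superantigen list turned to 2.62. The lowest adjusted p there was 0.0508 in the exact test, from an unadjusted p of 0.03125, the smallest that 6 mice can give. Against clonotypes of 2 mice 10 measures passed without the replicate block, and the cysteine share ran from −0.0821 to 0.0030 with a mouse left out. Lengths against clonotypes of 2 mice gave 2 calls with TMM and 2 to 4 with a mouse left out; segments gave 6 with at least 2 reads, and TRBV14 turned to −0.41 by CDR3 alone. Against single-library clonotypes, TRBJ1-1 turned to 0.081 (TMM) and 0.15 (DESeq2), TRBV15 to 0.0080 (DESeq2), TRBV12-1, TRBV17, TRBV31 and TRBV5 to 0.26, 0.39, −0.44 and −0.18 against CD4SP-only, and TRBV29 to −0.016 against CD8SP-only clonotypes. Lineage lean of member reads gave 3 calls without a filter, 0 without the replicate block, 2 with reads capped, 0 with at least 2 reads, 1 at equal reads and 3 to 6 with a mouse left out. Genotype gave 0 to 1 calls with a mouse left out. The cause of these changes was not tested, except where fewer clonotypes or mice entered by construction.

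Whether equal replicate numbers pair WT and KO mice is not stated, and deviations of the members' segment shares from the group means correlated at −0.380, 0.595 and 0.345 in the 3 pairs of equal number over 28 segments. Without the replicate block the genotype difference in members per 10000 clonotypes stayed 7.59 (exact permutation p = 0.3, 0.1 being the smallest possible) and the count of genotype calls stayed 0. A beta chain present in both lineages is counted only if it was sampled in both, and with all libraries at equal reads there were 675 members per mouse.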
